A study of Brassica napus with 6 samples.

Results

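The miRNA families miR158, miR161, miR400 and miR5654 were followed in shoot apices of Brassica napus (oilseed rape), both as small RNAs and through the transcripts listed for them in degradome data. They were taken by family number from the known miRNAs and, under any species prefix, from the miRNA-target records. This gave 5 of 401 listed miRNAs, namely bna-miR158a, bna-miR158b, bna-miR161, bna-miR400 and bna-miR5654, together with 31 of 535 degradome records in the normal library and 22 of 554 in the rod-like library. The study compared normal with rod-like plants, and the labels say nothing more of the rod-like form. All were field-grown together and sampled at early bolting, when 3 months old, and every RNA sample pooled the shoot apices of 6 plants. Small RNA was deposited as 2 files per plant type, and the degradome, which captures the 5′ ends of cleaved transcripts, as 1 library per plant type. The files list miRNAs and target records, so the labelled tissue was not checked against marker genes.

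A plant miRNA guides an Argonaute protein to transcripts to which it pairs almost along its whole length, and the transcript is usually cut opposite the middle of the miRNA. In Arabidopsis thaliana, miR161 and miR400 are known for guiding cleavage of transcripts that encode pentatricopeptide repeat (PPR) proteins, a large family that binds RNA in mitochondria and chloroplasts. PPR transcripts cut in this way are also a known source of secondary small interfering RNAs in that species. The 27 transcripts listed here carry identifiers only, none of which matched the RefSeq gene table, so no gene name or function is given to them.

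The degradome files print the mature sequence with each record, and the 3 miRNAs that have records are shown because the shared and separate targets described below rest on their sequences. They are written 5′ to 3′ in the DNA letters of the files, with the seed, bases 2 to 8, in capitals.
bna-miR161: tCAATGCActgaaagtgacta
bra-miR400-5p: tATGAGAGtattataagtcac
bra-miR5654b: aTAAATCCcaagcatcatcca
All 3 are 21 nt long, and their seeds differ from each other. No other of the 215 miRNA names with degradome records had any of these seeds. The small RNA files list bna-miR400 and bna-miR5654, without sequences, so both data types were joined by family number, and whether those names stand for the same sequences was not tested. No record of either library was listed under a miR158 name.

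The 5 miRNAs covered more than 3 orders of magnitude in abundance. Counts were put on a scale of 1000000 listed miRNA reads (RPM) with TMM, a scaling that assumes most miRNAs do not change. The 2 files of a plant type differed by no more than counting noise (chi-square per degree of freedom 0.885 for normal and 1.05 for rod-like), so each pair was counted as 1 sample and n is 1 per plant type. Summed counts over the listed miRNAs were 625795 to 713637 per file. Intervals at 95% cover counting error only. They were drawn from the mean count of the 2 files, and the summed reads would give narrower ones. Comparisons are between libraries, without a spread between plant pools.

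The normal files held 112011 and 112094 reads of bna-miR158a, and the rod-like files 127767 and 127055. At 174463 RPM in normal and 182963 RPM in rod-like plants, it ranked 3 of all 401 listed miRNAs by abundance and took 17.9% of the listed counts in each plant type. Rod-like plants had 1.05 times the normal level (1.04 to 1.06). This small difference is larger than counting error under this scaling, but not larger than the differences between scalings given below.

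Of bna-miR158b, the less abundant form of the same family, there were 3170 and 3294 reads in normal files, against 6616 and 6578 in rod-like files. The files of the plant types did not overlap, and abundance rose from 5032 to 9473 RPM, a ratio of 1.88 (1.80 to 1.96). The share of miR158b in the family's reads does not depend on any scaling between files. It stood at 2.75% and 2.85% in normal files and rose to 4.92% in both rod-like files. The ratio of miR158b to miR158a was thus 1.80 times as high in rod-like plants (1.72 to 1.87). How reads of near-identical forms were assigned is not stated, so the split between the forms is uncertain to that extent.

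The normal files had 783 and 816 reads of bna-miR5654 and the rod-like files 2419 and 2578. Abundance rose from 1245 to 3588 RPM, a ratio of 2.88 (2.66 to 3.12), and the files did not overlap. Set against miR158a within each file, miR5654 amounted to 0.699% and 0.728% for normal plants, against 1.89% and 2.03% for rod-like plants, a ratio of ratios of 2.75 (2.53 to 2.98). Of the 5 miRNAs, miR5654 had the highest ratio of rod-like to normal, also relative to miR158b, with a ratio of ratios of 1.53 (1.40 to 1.68).

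The rarest members were miR161 and miR400. There were 62 and 70 reads of bna-miR161 per normal file and 82 and 104 per rod-like file, and its ratio of 1.30 had an interval of 0.938 to 1.81. Reads of bna-miR400 numbered 44 and 54 per normal file and 77 and 64 per rod-like file, with a ratio of 1.32 (0.902 to 1.94). In RPM the rod-like files lay above the normal files for both. Both intervals, drawn from the mean count per file, included 1. Whether the narrower intervals of the summed reads would include 1 was not computed. The direction of both ratios depended on the scaling, as given below. The counting intervals of the 2 miRNAs also overlapped each other in both plant types. The miR400 count was 71.0% and 77.1% of the miR161 count for normal files, against 93.9% and 61.5% for rod-like files. The rest of the order, miR158a above miR158b above miR5654 above miR161, was the same in all 4 files, with intervals that did not overlap. Levels of different miRNAs also carry the unequal ligation and amplification of small RNAs, which was not measured.

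**Figure D1:**
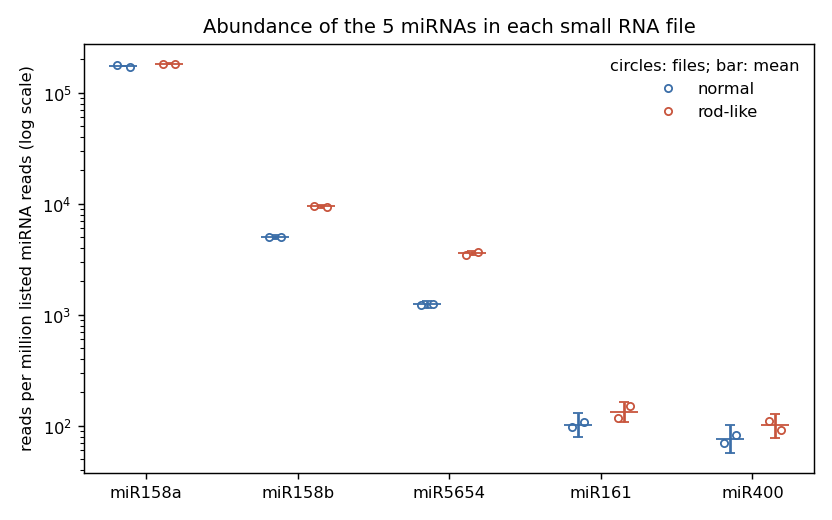
Abundance of the 5 miRNAs in RPM, on a log axis, for normal (blue) and rod-like (red) plants. Circles are the 2 files of a plant type, horizontal bars their mean and error bars the exact 95% counting interval; miR158b and miR5654 stand clearly higher in rod-like plants, while the intervals of miR161 and miR400 overlap between plant types.

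In edgeR's quasi-likelihood test over 391 miRNAs with Benjamini-Hochberg adjustment, miR158a (adjusted p = 0.00105), miR158b (6.39e-65) and miR5654 (2.65e-68) passed 0.05 as higher in rod-like libraries, and miR161 (0.068) and miR400 (0.0933) did not. The test reads the pairs of files as replicates, so these p-values measure only the spread between files. The 3 of 5 members called, all higher, compare with 28.1% of all tested miRNAs called, 16.6% higher and 11.5% lower, and with 52.3% higher among the 65 known miRNAs tested. With scaling by the total count the calls over all miRNAs split into 55 higher and 58 lower, and with TMM on known miRNAs alone into 28 and 170, in place of 65 and 45. In TMM-scaled RPM both rod-like files exceeded both normal files for all 5 members, against 30.7% of all and 64.6% of known miRNAs tested, but as shares of the total count this held for 4, since those of miR158a overlapped. The median log2 fold change of the members, 0.41, was that of miR400, which was also the median of the known miRNAs, and over all tested miRNAs the median was -0.01.

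The call of miR158a changed with the scaling, the test and the files used. In edgeR's test it was lost with DESeq2's size factors (adjusted p = 0.125) and with the total count (0.942), and with TMM computed on known miRNAs alone its log2 fold change was -0.43 and passed as lower (adjusted p = 0.00198). With TMM unchanged, it was lost in edgeR's test without rod-like replicate 1 (adjusted p = 0.0973), without rod-like replicate 2 (0.088) and with the replicate block (0.122), at fold changes close to the reported one. DESeq2's Wald test called it higher (log2 fold change 0.05, adjusted p = 8.83e-07). In edgeR's test miR161 passed as higher without rod-like replicate 1 (0.0234). Scaling on known miRNAs alone moved the median of all tested miRNAs by -0.49 on the log2 scale. Under it miR158b and miR5654 were still called higher, with log2 fold changes of 0.42 and 1.03, whereas miR161 and miR400 lay at -0.12 and -0.09, so their direction depended on the scaling.

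**Figure D2:**
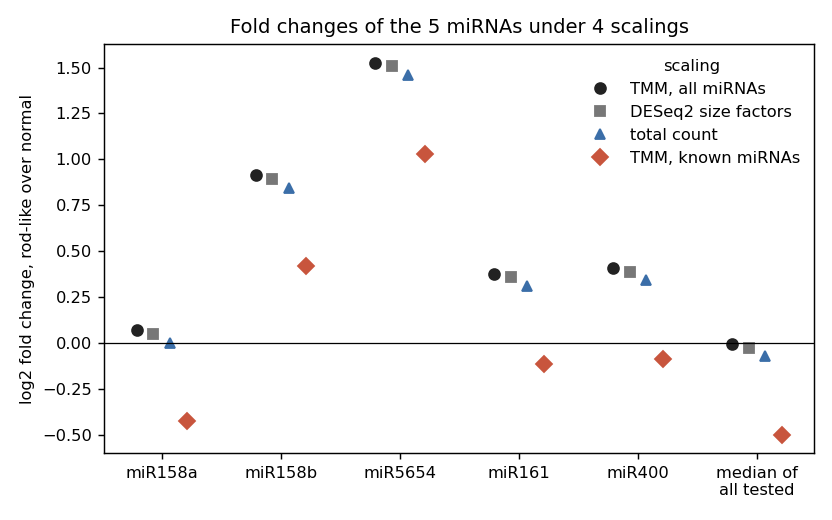
Log2 fold change of rod-like over normal for each miRNA, and the median over all tested miRNAs, with counts scaled in 4 ways (symbols). Values for miR158b and miR5654 lie above 0 under every scaling shown, while miR158a, miR161 and miR400 fall below 0 when TMM uses the known miRNAs alone.

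Among known miRNAs that averaged 100 or more reads per file, those with the nearest log2 ratio to miR5654 were miR164a (ratio 2.94, against 2.88), miR2111abd (2.70) and miR9553 (2.46). Nearest to miR158b were miR156j (1.93), miR164b-d (1.79) and miR6030 (2.08). Nearest to miR158a were miR167e (1.04), miR399c (1.06) and miR399e (1.02). For miR161 and miR400 the same miRNAs came out, miR399ab (1.30), miR171gf (1.33) and miR2111e (1.34). Likeness here is the distance between single log2 ratios over 2 plant types and 44 or 45 candidates. Of other miRNAs known to trigger secondary small interfering RNAs, 3 were listed and 2 tested: miR390a-c, the trigger on TAS3 transcripts, was 1.16-fold lower (1.12 to 1.20) and passed, and miR393b, which targets auxin receptors, had a ratio of 0.922 (0.453 to 1.88) and did not. In the small RNA machinery list, miR162b, which targets DCL1, was higher at 1.57-fold (1.36 to 1.81) and miR168a, which targets AGO1, was 1.35-fold lower (1.34 to 1.36).

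In the degradome, the target list of miR5654 was identical between the plant types. Its name bra-miR5654b was paired with 13 transcripts in the normal library and with the same 13 in the rod-like library, at identical positions. Identical lists were found for 5 of the 18 named families with records in both libraries, miR160, miR164, miR168, miR394 and miR5654, and 89.4% of the 246 normal records of other named families, without the name ahy-miR156c, were also listed in rod-like plants. All 13 miR5654 records were of category 0 in normal plants and 11 in rod-like plants, where BnaA09g45590D and BnaC08g15670D were in category 1. Categories run from 0 to 3 and lower ones were taken as stronger evidence, which the files do not state. The score of a record equalled the number of unpaired positions plus 0.5 for each G:U pair in 1088 of all 1089 records, and so in all 53 of the member families. For miR5654 scores were 2 or 3.

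The 13 miR5654 transcripts held only 4 different site sequences, shown because 1 of them accounts for 8 transcripts. Sites are written 5′ to 3′ on the transcript, and capitals mark bases that do not form a Watson-Crick pair with the miRNA.
BnaA09g46840D: tCgatgatgcttgggatCtat
BnaA09g47950D: tAgatgatgcttgggatCtat
BnaA09g45590D: tCgatgaAgcttgggatCtat
BnaC08g15670D: tggaCgatgcttgggatCtat
The first was found in 8 transcripts, among them BnaC08g15720D, of category 0 in both libraries. The second was found also in BnaC08g40900D, the third also in BnaC08g40970D, and the fourth in BnaC08g15670D alone. Counted from 1 at the 5′ end of the miRNA, position 4, which lies in the seed, was unpaired in all 13 transcripts, and position 20 in 12. The bases at 17 of the 21 positions were paired in every transcript, positions 9 to 11 among them. With P-values of 0.004 throughout in normal and 0 to 0.016 in rod-like plants, as the authors' target caller gave them, all 13 lay below 0.05.

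For miR161 the list was longer in normal than in rod-like plants. The name bna-miR161 was paired with 13 transcripts in the normal library, 4 in category 0, 1 in category 1 and 8 in category 2. The rod-like library listed 5, 4 in category 0 and 1 in category 1, and these were the same transcripts and positions as the 5 of categories 0 and 1 in normal plants. All 8 records of category 2, each with a P-value of 0.022, were not listed in the rod-like library. Records of category 2 under other named families occurred under the name ahy-miR156c alone, 41 in the normal library, of which none was listed in the rod-like library either. Predicted miRNAs had 77 such records in normal plants, 33 of them also listed in rod-like plants. In the rod-like library, records of category 2 numbered 0 under all named families and 114 under predicted miRNAs. The absence of this category there was thus not particular to miR161. With 1 degradome library per plant type, the difference in listing has no replicate check.

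The 5 miR161 transcripts listed in both libraries were BnaA09g46700D, BnaA09g46890D, BnaC08g40910D, BnaC08g41200D and BnaC08g41520D. The best scored, with 2 in category 0 in both, were BnaA09g46700D at position 624, BnaA09g46890D at position 501 and BnaC08g40910D at position 954. Scores ran from 2 to 3 with a median of 2 in these 5, and from 2 to 4.5 with a median of 2.75 in the 8 of normal plants alone. Position 9 of the miRNA was unpaired in 1 of the 5 and in 5 of the 8. An alignment gap was present in 1 of the 5 and in 4 of the 8.

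The sites of miR161 were more varied, with 8 sequences in 13 transcripts. The sites of BnaA09g46700D and BnaC08g41200D are shown because they recur in transcripts that were listed differently, that of BnaA09g46890D because it recurs in a transcript listed alike, and that of BnaC08g40130D because its transcript was also listed for miR5654.
BnaA09g46700D: tTgtcactttcagtgcTttga
BnaA09g46890D: tCgtcactttcagtgTGttga
BnaC08g41200D: tTgtcactttcaAtgcTttga
BnaC08g40130D: tCgtcactttcaAtgcGttga
The site of BnaA09g46700D, category 0 in both libraries, was the same to the letter in BnaC09g37630D, which was in category 2 in normal plants and not listed in rod-like plants. The site of BnaC08g41200D, category 1 in normal and 0 in rod-like plants, recurred in BnaA09g47120D and BnaC08g40970D, both of category 2 in normal plants alone. The site of BnaA09g46890D was shared with BnaC08g40910D, and both were of category 0 in both libraries. Another recurring site, in BnaA06g11340D and BnaC05g12880D, was of category 2 in normal plants alone for both. Of 4 recurring sites, 2 thus differed in category and in listing between transcripts and 2 did not. Across the 13 transcripts, position 5 lacked a pair in 6 and formed a G:U pair in 6, and position 20 was unpaired in 9.

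For miR400, pairing was closest of the 3. The name bra-miR400-5p was listed with 5 transcripts in normal and 4 in rod-like plants, all 4 of them shared and at the same positions. Each of these 4 had a score of 1, that is, a single unpaired base.
BnaA09g12140D: gtgacGtataatactctcata
BnaA09g49860D: gtgacttataatactctcatT
BnaC03g63210D: TtCgacGtataatactctcata
The first site was also that of BnaC09g12100D and the second that of BnaC08g44830D. Category was 0 for all 4 in rod-like plants and for 3 of them in normal plants, where BnaC08g44830D was in category 1. The third transcript, with a score of 3 and a bulged base, was in category 0 at position 926 in normal plants and was not listed in rod-like plants. Positions 2 to 15 of miR400 were paired in all 5 transcripts.

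**Figure D3:**
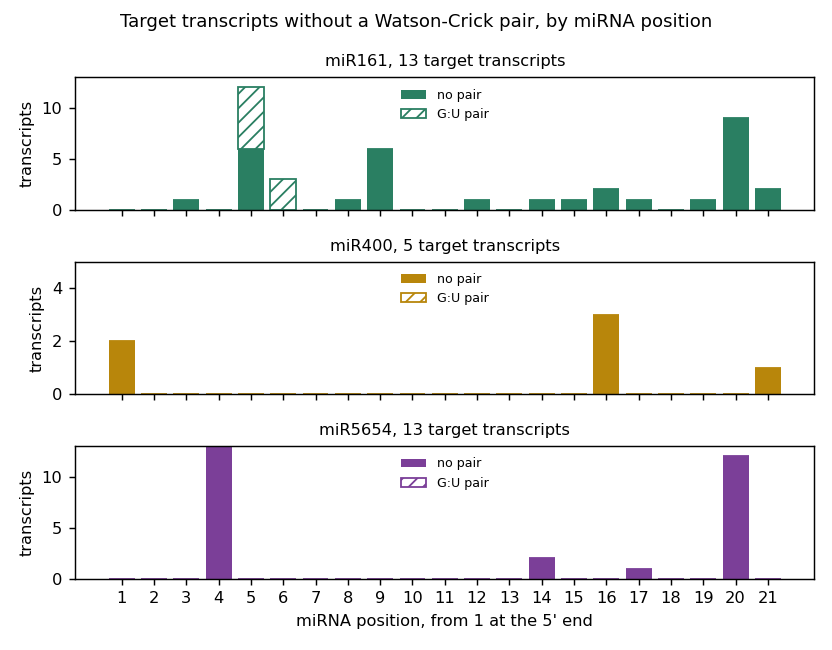
Number of target transcripts without a Watson-Crick pair at each position of the miRNA, counted from 1 at its 5′ end, for miR161 (13 transcripts), miR400 (5) and miR5654 (13). Filled bars stand for no pair and hatched bars for a G:U pair; miR5654 was unpaired at position 4 in all 13 transcripts, and miR161 lacked a Watson-Crick pair at position 5 in 12 of 13.

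The families did share transcripts, but to a limited extent. Of 27 target transcripts, 4 (14.8%) were listed for both miR161 and miR5654, which is 30.8% of the 13 transcripts of each. They were BnaA09g47120D, BnaC08g40130D, BnaC08g40970D and BnaC09g37630D. No transcript was shared between miR400 and either of the others. None of the 1036 records of other miRNAs fell on any of the 27 transcripts.

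All 4 shared transcripts were of category 0 for miR5654 in both libraries, and of category 2 for miR161 in normal plants alone. With categories 0 and 1 alone, or in the rod-like library, the number of shared transcripts was therefore 0. The 2 miRNAs were listed at separate sites, with the miR161 position first in each. These were 975 and 1428 in BnaA09g47120D, 477 and 930 in BnaC08g40130D, 825 and 1398 in BnaC08g40970D and 855 and 1275 in BnaC09g37630D. The spacing was 453, 453, 573 and 420 nt, in each case a multiple of 3, or 151, 151, 191 and 140 codons if the stretch between is coding. This follows from the positions themselves, each of which is a multiple of 3, and is no observation apart from the phase described below.

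Over the whole degradome, 31 of 568 transcripts (5.46%) were listed for more than 1 family or predicted miRNA. Among transcripts of the 24 named families, 5 of 230 (2.17%) were listed for more than 1 named family. Both shares lie below the 14.8% of the 27 transcripts here, although both include the 4 transcripts of miR161 and miR5654. Among the 203 transcripts listed for other named families, 1 was listed for more than 1 named family. All these shares are over all categories, and the 14.8% rests on miR161 records of category 2. Of 276 possible pairs of named families only 2 shared a transcript, miR161 with miR5654, with 4, and miR159 with miR319, with 1.

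**Figure D4:**
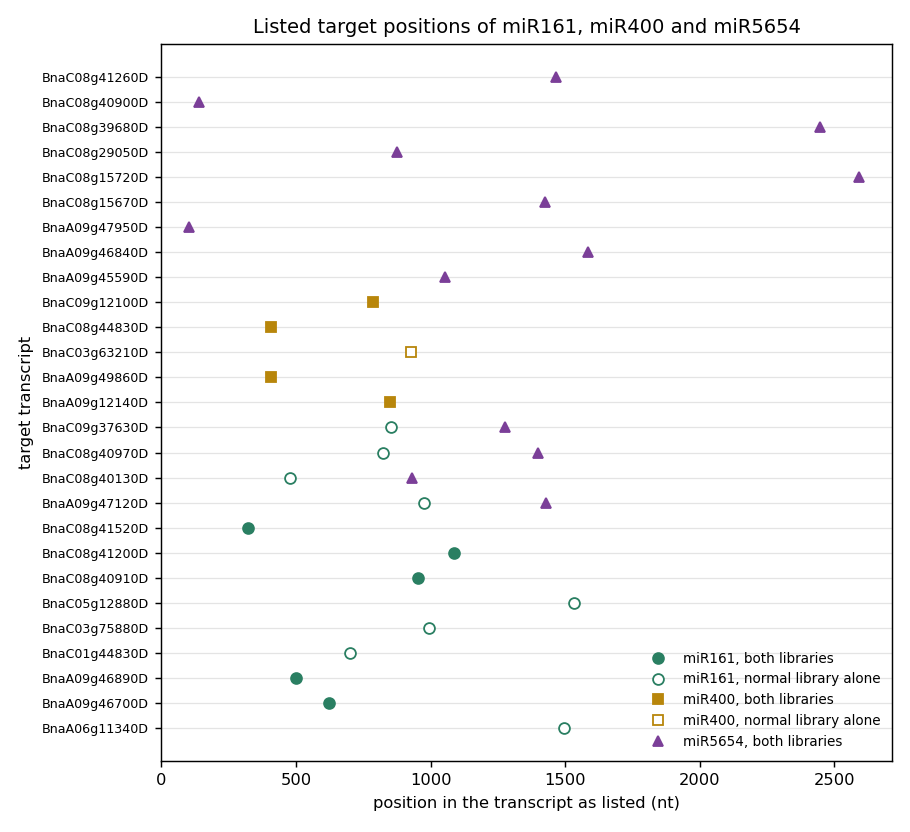
Positions in the transcript, in nt as listed, of the records of miR161 (circles), miR400 (squares) and miR5654 (triangles) on the 27 target transcripts. Filled symbols were listed in both libraries and open symbols in the normal library alone; on the 4 transcripts with symbols of 2 families, the miR161 position (open) lies 420 to 573 nt before the miR5654 position (filled).

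The listed positions kept a common phase within each family. Divided by 3, all 13 positions of miR5654 and 12 of the 13 of miR161 left a remainder of 0, and all 5 of miR400 left a remainder of 2. The exception was BnaC01g44830D, at position 701. A single remainder was common to all positions in 8 of the 15 named families with at least 5 positions, and for predicted miRNAs the 3 remainders took 30%, 39.2% and 30.8% of 360 positions. A shared phase was thus not particular to these families.

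Identifiers beginning BnaA09 or BnaC08 made up 12 of the 13 miR5654 transcripts, 8 of the 13 of miR161 and 3 of the 5 of miR400. The same prefixes covered 83 of all 568 transcripts (14.6%) and 21 of the 203 transcripts listed for other named families (10.3%). All 5 miR161 transcripts listed in both libraries carried these prefixes, against 3 of the 8 listed in normal plants alone. Members that share a site sequence are not independent observations, so these shares are given without a test.

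Abundance did not order the families by number of targets. The miR158 family, which ranked 3 of 38 known families with 179495 RPM in normal and 192436 RPM in rod-like plants, had no target listed. The families miR161 and miR400, at 103 and 76.3 RPM in normal plants, had 13 and 5 targets there, and miR5654, at 1245 RPM, had 13 as well. In rod-like plants miR161, at 134 RPM, had 5, miR400, at 101 RPM, had 4, and miR5654, at 3588 RPM, again had 13. Thus miR5654 was 2.88-fold more abundant in rod-like plants with the same number of targets. The rod-like degradome sample is titled with the number 3 and the rod-like small RNA samples with 1 and 2, so whether targets and abundance come from the same plants is not stated.

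Of the 7 known families above 10000 RPM in both plant types, miR158 and miR167 alone had no target listed in either library. In all, 15 of the 38 known families had none. Across the 18 families with a target in the normal library, the rank correlation of abundance with number of targets was 0.08 and Pearson's r on log2 scales 0.15. Across 23 families in the rod-like library the values were 0.15 and 0.19. These are descriptions, since the families share the same libraries and several have few targets.

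**Figure D5:**
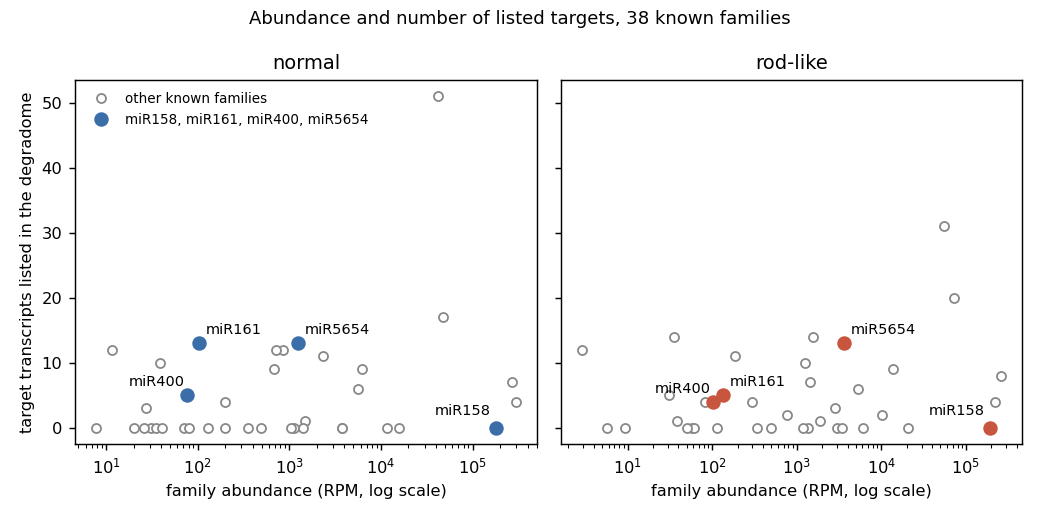
Number of target transcripts listed in the degradome against family abundance in RPM (log axis) for the 38 known families, in normal (left) and rod-like (right) plants. Coloured points are miR158, miR161, miR400 and miR5654, open points the other families; miR158 lies at the high end of abundance with 0 targets, and miR5654 has 13 targets in both panels.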

How the data were processed

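For small RNA, the authors deposited whole-number counts per known or predicted miRNA, made, per the labels' protocols, from RNAs of 18 to 30 nt cut from a gel. Each degradome record carries, per the file headers, a score, category, position, P-value and alignment for each pair. Which mapper and target caller were used, and with what thresholds, is not given in the sources used here. Members and lists were chosen with earlier results of these data known. Counts were fitted with edgeR 4.0.16 (R 4.3.3): filterByExpr, TMM, robust quasi-likelihood test, Benjamini-Hochberg adjustment over all 391 tested miRNAs. The step was tested on simulated counts with known folds, drawn as independent samples. Fitted folds were compared after removing the median offset of the unchanged miRNAs, so the test could not show an error of scaling. Ratios use mean counts per file, rounded to whole reads, over TMM library sizes, with exact conditional 95% intervals (SciPy 1.17.1). RPM values use the unrounded means, so a ratio of RPM values can differ slightly from the ratio given. Ratios of ratios use the exact conditional odds ratio. DESeq2 1.42.0 served as an alternative. PCR reads are not independent molecules, and the intervals therefore hold counting error alone. Named were all members, transcripts shared between families, up to 5 best targets per family, and for each member the 3 known miRNAs with the nearest ratio; other transcripts were named after their values were seen, to show identical sites and exceptions. A RefSeq gene table (assembly Da-Ae) matched 0 of 27 target identifiers. The labels do not say that equal file numbers mark a shared pool, and same-numbered files did not deviate together (correlation -0.09 over 109 miRNAs with at least 100 counts).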

Additional observations from a re-analysis of the deposited data

How the results depend on the processing

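Of the miRNAs, miR158b and miR5654 kept their direction and their call under every alternative run. The call of miR158a was lost (log2 fold changes) with scaling by the total count (0.00108) or DESeq2's size factors (0.0502), no low-count filter (0.0776) and the replicate block (0.0685), held with DESeq2's Wald test (0.0502), and passed as lower at -0.43 with TMM on known miRNAs alone; leaving out each file gave 0.0691 to 0.0861, with the call lost without either rod-like file. With TMM on known miRNAs alone, miR161 and miR400 also turned, to -0.118 and -0.0876. Leaving out each file gave 0.20 to 0.54 for miR161, which passed without rod-like replicate 1 (adjusted p = 0.0234), and 0.27 to 0.57 for miR400. Calls over all miRNAs, 110 as reported (65 higher, 45 lower), numbered 198 with TMM on known miRNAs alone (28 higher), 53 with the replicate block, 57 with DESeq2's Wald test, 113 with the total count (55 higher, 58 lower), and 71 to 87 when each file was left out. The labels do not say whether equal file numbers mark a shared pool, so whether a call lost under the block marks a weaker effect cannot be told. In the degradome, miR161 kept 5 normal targets in categories 0 and 1 and 4 in category 0, of which 3 were in both libraries. Transcripts shared between families, 4 pooled and in the normal library, fell to 0 with categories 0 and 1, with category 0, and when positions had to lie within 10 nt. The rank correlation of abundance and targets in normal plants was 0.22 without the most abundant family, and 0.23 over all 38 families with 0 for those without targets, an alternative chosen after seeing the data. A P-value limit of 0.05 removed no record of these families. For miR161 and miR400, with mean counts of 49 to 93 per file, the intervals drawn from the mean count included a ratio of 1. In edgeR's test, which uses the reads of both files, the unadjusted p was 0.0205 for miR161 and 0.0303 for miR400. Neither passed after adjustment in the fit as reported.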
